A study of Mus musculus with 4 samples.

Results

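The genes described here are Tbx1, Tbx2, Tbx3, Tbx4 and Tbx5, 5 of the 54446 genes in the deposited table and 5 of the 17 T-box genes in it. They were matched by gene symbol, and each symbol stood once in the table. Tbx4 was chosen by its FPKM values, for their fall in the Zeb1-CKO libraries, so its difference between the genotypes is given as a description with no test. Tbx2 was taken as its neighbour on chromosome 11, and Tbx1, Tbx3 and Tbx5 as other members of the family. RNA came from 100 sorted endothelial cells (vessel-lining cells) of the retina per library, taken from C57BL/6 mice at postnatal day 16. Each genotype, Zeb1-CKO and control, had 2 libraries; the titles call the Zeb1 change CKO (a conditional knockout), while the genotype field calls it a knockdown. Zeb1 encodes a zinc-finger repressor. For the Cre driver, the alleles carried by controls and the animals behind a library, no information was found in the sources used here. Since no label says that libraries of 1 genotype came from separate animals, p-values reflect only how these samples vary, which may be technical.

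T-box proteins are transcription factors that share a DNA-binding domain, the T-box, and bind variants of one short DNA element as activators (as Tbx5 and Tbx4 mostly do) or repressors (as Tbx2 and Tbx3 mostly do). Tbx2 and Tbx4 form one linked pair in the genome and Tbx3 and Tbx5 another, with Tbx2 closest in sequence to Tbx3, and Tbx4 to Tbx5. In mouse embryos Tbx4 is known for hindlimb and lung mesenchyme, Tbx5 for heart and forelimb, and Tbx2, Tbx3 and Tbx5 for the dorsal side of the retina. Tbx1, whose human counterpart lies in the region deleted in DiGeorge syndrome, is also expressed in brain and lymphatic endothelium, and human TBX4 variants are linked to pulmonary arterial hypertension.

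The deposited values are FPKM, a read density per transcript length and library size, so levels can be compared between genes per length.

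Tbx4 was close to the floor of detection in Zeb1-CKO cells and low but clearly present in control cells. It stood at 0.0134 and 0.121 FPKM in Zeb1-CKO libraries 1 and 2, against 2.25 and 1.81 FPKM in control libraries 1 and 2. Both Zeb1-CKO libraries lay far below both controls, and the spread within each genotype was small beside the gap. The means were 0.0671 ± 0.0759 FPKM in Zeb1-CKO cells and 2.03 ± 0.314 FPKM in control cells (SD, n = 2 each), a ratio of 30.2 between control and Zeb1-CKO cells on the FPKM scale. That ratio was 16.8 without Zeb1-CKO replicate 1 and 151 without Zeb1-CKO replicate 2, so its size rests on which Zeb1-CKO library is read. On the log2(FPKM + 1) scale, which understates changes of low genes, the difference was -1.50, the 51st lowest of the 13651 genes whose mean reached 1 FPKM. Tbx4 reached that filter, with a mean of 1.05 FPKM over the 4 libraries, only through its control level, so that its being among the genes fitted and low in Zeb1-CKO cells are not separate facts.

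The depth behind these Tbx4 values was estimated from the steps between low FPKM values in genes with 1 annotated transcript. If a step is 1 fragment, the depths were 22.0 and 16.8 M (mega) fragments in Zeb1-CKO libraries 1 and 2, and 20.6 and 11.2 M fragments in control libraries 1 and 2. Over the annotated Tbx4 transcripts, 2959 to 3153 bases long, the level in Zeb1-CKO library 1 was then worth 0.872 to 0.929 fragments and that in library 2 was worth 6.00 to 6.39. The control levels were worth 137 to 146 fragments in library 1 and 59.97 to 63.9 in library 2. The Tbx4 level in Zeb1-CKO cells thus rested on a handful of fragments, its ratio to the control level is imprecise, and a low level cannot be told from none in library 1. The shallowest library was a control in which Tbx4 was well detected. In these bulk libraries, fewer cells with Tbx4 RNA and less Tbx4 RNA per cell cannot be told apart.

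**Figure D1:**
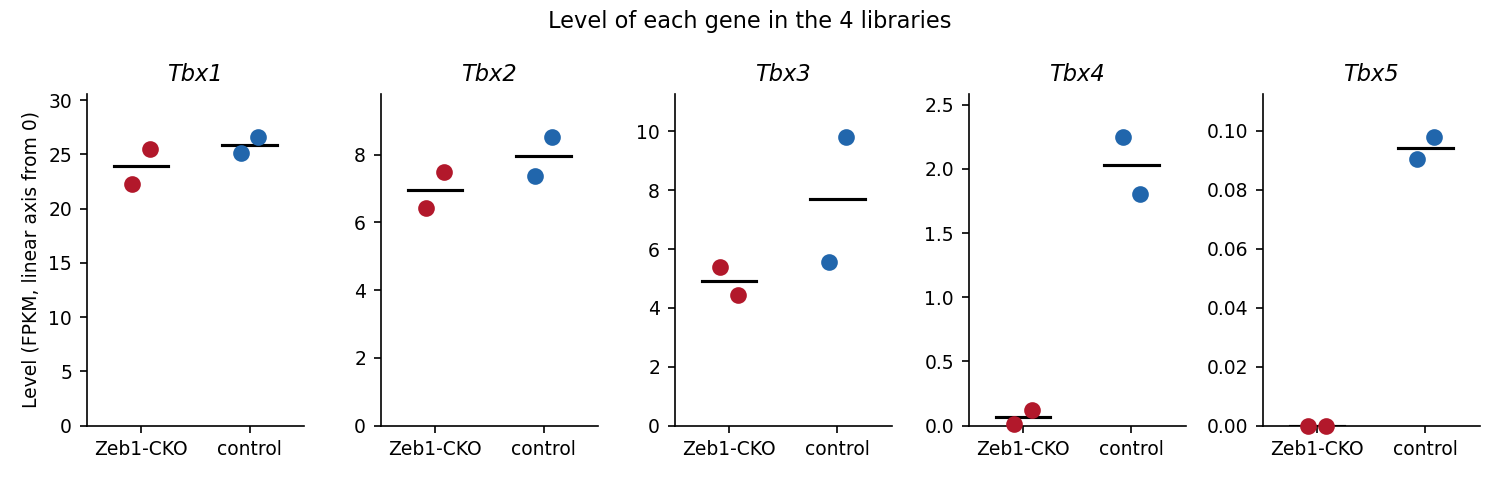
Level in FPKM (vertical axis, linear and starting at 0, with a scale of its own in each panel) of the 5 genes in Zeb1-CKO libraries (red, left) and control libraries (blue, right); each point is 1 library and bars are means of 2. The Tbx4 points are at 0.0134 and 0.121 FPKM in Zeb1-CKO cells and at 2.25 and 1.81 FPKM in control cells, while those of Tbx1 and Tbx2 overlap between genotypes.

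Tbx2, the neighbour of Tbx4 and mostly a repressor, was present at similar levels in both genotypes. It stood at 6.43 and 7.50 FPKM in Zeb1-CKO libraries, against 7.39 and 8.53 FPKM in control libraries. The ranges overlapped, with Zeb1-CKO library 2 above control library 1. The means were 6.97 ± 0.756 FPKM in Zeb1-CKO cells and 7.96 ± 0.808 FPKM in control cells (SD, n = 2 each). The log2(FPKM + 1) difference was -0.17 (SE 0.16), with an adjusted p of 0.634 by limma, a linear model fitted across all 13651 genes with Benjamini-Hochberg adjustment.

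Tbx3, the closest relative of Tbx2, had lower values in Zeb1-CKO cells but did not pass the test, and its controls differed widely. It stood at 5.39 and 4.45 FPKM in Zeb1-CKO libraries, against 5.56 and 9.81 FPKM in control libraries. The genotypes did not overlap, but control 1 lay just above the Zeb1-CKO libraries and control 2 well above all others. Libraries of the genotypes do not overlap in 49.4% of all fitted genes. The means were 4.92 ± 0.667 FPKM in Zeb1-CKO cells and 7.68 ± 3.01 FPKM in control cells (SD, n = 2 each), a log2 difference of -0.51 (SE 0.26) with limma's adjusted p at 0.381. Without control replicate 2 the difference was -0.15, and without control replicate 1 it was -0.87, with limma's adjusted p at 0.121. Control library 2 also had the highest summed microglial markers (43.9 FPKM) of the 4 libraries, led by C1qb and C1qa. The microglial marker P2ry12 was instead lowest there, at 0.441 FPKM. That library also had the lowest sum of 7 photoreceptor markers (4.76 FPKM). The part of these markers in the Tbx3 value was not tested.

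Beside Tbx3, the antisense gene Tbx3os1, which starts 0.7 kb from the Tbx3 start on the opposite strand, also had lower values in Zeb1-CKO cells. It stood at 5.53 and 6.92 FPKM in Zeb1-CKO libraries, against 10.3 and 10.9 FPKM in control libraries. All Zeb1-CKO values lay below all control values, and the log2 difference of -0.69 (SE 0.16) had an unadjusted p of 0.00567 and an adjusted p of 0.0943 by limma. Tbx3 shares 115 of its 6624 exon bases with Tbx3os1, which is 1.74% of Tbx3 and 3.63% of the 3167 exon bases of Tbx3os1. The libraries do not mark strand, so reads in this shared stretch cannot be assigned to one gene, and both values are uncertain to that extent. No annotated gene overlapped Tbx1, Tbx2, Tbx4 or Tbx5.

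Tbx1 was the most abundant of the 5 genes. It stood at 22.3 and 25.5 FPKM in Zeb1-CKO libraries, against 25.2 and 26.6 FPKM in control libraries. The ranges overlapped, and the means of 23.9 ± 2.27 FPKM in Zeb1-CKO cells and 25.9 ± 1.03 FPKM in control cells (SD, n = 2 each) differed by -0.11 on the log2 scale (SE 0.14, limma adjusted p = 0.723). Tbx5, the closest relative of Tbx4, was listed at 0 in both Zeb1-CKO libraries, against 0.0903 and 0.0979 FPKM in control libraries 1 and 2. For its longest transcript, of 3942 bases, the control levels were worth 7.33 and 4.33 fragments, while 1 fragment was worth 0.0116 and 0.0151 FPKM in Zeb1-CKO libraries 1 and 2. Tbx5 was below the filter on the mean and was not tested, and a level of that size is near the limit of what these libraries can show.

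Of Tbx1, Tbx2 and Tbx3, the fitted genes of the 5 other than Tbx4, 0 of 3 passed limma's threshold of an adjusted p under 0.05, and 0 had an unadjusted p under 0.05. The same counts of 0 were found by limma without an intensity trend. Over all fitted genes, 3.13% passed in either direction and 17.9% had an unadjusted p under 0.05. With 2 libraries of each genotype, misses of the threshold do not show that these levels were equal. All 3 had negative log2 differences, with a median of -0.17, while the median over all fitted genes was 0.02 and 47.2% of them were negative.

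By level, the order in Zeb1-CKO cells was Tbx1, Tbx2, Tbx3, Tbx4 and Tbx5, and no neighbours in that order overlapped between their libraries. The place of Tbx4 above Tbx5 is not resolved, since Tbx4 in Zeb1-CKO library 1 was worth only 0.872 to 0.929 fragments. In control cells Tbx1 was also highest, Tbx4 next to last and Tbx5 lowest, while Tbx2 (7.39 and 8.53 FPKM) and Tbx3 (5.56 and 9.81 FPKM) could not be ordered beyond their spread. Tbx4 was thus well below Tbx1, Tbx2 and Tbx3 in control cells as well.

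The 12 other T-box genes gave a second view of the family. Of these, 3 had a mean of at least 1 FPKM and were fitted, and 0 of the 3 passed limma's threshold, with 1 at an unadjusted p under 0.05 and the same counts without an intensity trend. Tbx18, a marker of pericytes and vascular smooth muscle, stood at 2.56 and 3.25 FPKM in Zeb1-CKO libraries, against 4.58 and 3.997 FPKM in control libraries. Its Zeb1-CKO values were both below the controls, with a log2 difference of -0.44 (SE 0.17, unadjusted p = 0.0463, limma adjusted p = 0.270). Mga, which encodes a large protein with both a T-box and a helix-loop-helix domain, had a log2 difference of -0.27 (limma adjusted p = 0.449), and Tbx15, known from mouse skeletal development and dermis, one of -0.14 (limma adjusted p = 0.710). In all 3 genes the Zeb1-CKO libraries lay below the control libraries without overlap, as in 22.3% of all fitted genes.

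The other 9 T-box genes were below the filter and were not tested. T, or brachyury, the founding member of the family and a mesoderm regulator, was at 0.482 and 0.778 FPKM in Zeb1-CKO libraries, against 0.196 and 0.0708 FPKM in control libraries. Tbx20, a heart and endothelial factor of the embryo, was at 0.293 and 0.234 FPKM in Zeb1-CKO libraries, against 0.0643 and 0.0809 FPKM in control libraries. Both had higher values in the 2 Zeb1-CKO libraries than in the 2 controls. Libraries of the genotypes do not overlap in 49.4% of all fitted genes. That share was not computed for genes below the filter, so no direction of the low T-box genes can be read from these values. Tbx6, a factor of the presomitic mesoderm, overlapped between genotypes, at 0.449 and 0.772 FPKM in Zeb1-CKO libraries and 0.955 and 0.664 FPKM in control libraries. Tbr1 and Eomes are known from retinal ganglion cells. Tbr1 was at 0.0854 and 0.180 FPKM in Zeb1-CKO libraries, against 0.15 and 0.224 FPKM in control libraries. Eomes was at 0.0678 and 0.0851 FPKM in Zeb1-CKO libraries, against 0 and 0.0216 FPKM in control libraries. Both were low in all libraries. Those of Tbr1 overlapped between genotypes, while Eomes had higher values in both Zeb1-CKO libraries. Tbx19, a pituitary factor, was lower in Zeb1-CKO libraries, at 0.00588 and 0 FPKM, against 0.0632 and 0.0783 FPKM in control libraries. Tbx10, Tbx21 (also called T-bet, a T-cell factor) and Tbx22 were at or below 0.109 FPKM in every library.

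**Figure D2:**
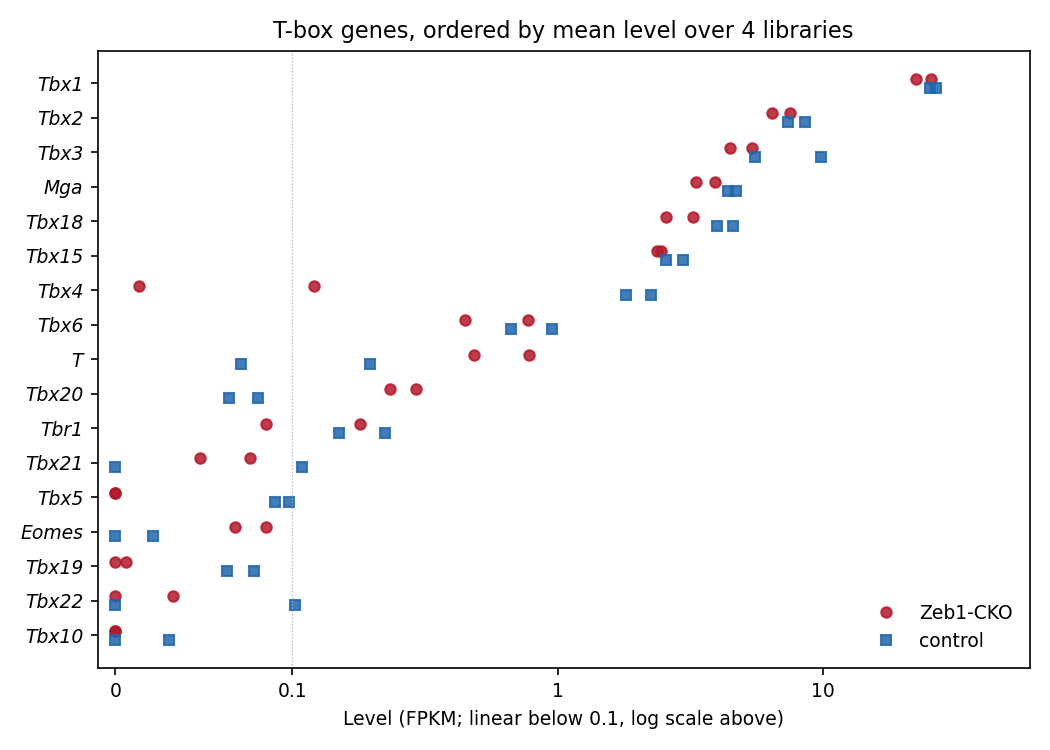
Level in FPKM (horizontal axis, linear below 0.1 and logarithmic above) of all 17 T-box genes, ordered from top to bottom by mean level; red circles are Zeb1-CKO libraries and blue squares are control libraries, 2 of each per gene. Tbx4 is the gene whose red and blue points lie farthest apart on this axis among those with any library above 1 FPKM.

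The genes around Tbx4 were examined to see whether its lower level was shared along the chromosome. Tbx2 spans chr11:85832551-85841948 and Tbx4 chr11:85886422-85916097 in mm10, both on the plus strand, with starts 53.9 kb apart. Of 15 other genes that start within 500 kb of either, 5 were fitted, and 0 passed limma's threshold, with 0 at an unadjusted p under 0.05 and the same counts without an intensity trend. Med13, a subunit of the Mediator kinase module, Ints2, an Integrator subunit, and Bcas3, which encodes a cytoskeletal and autophagy protein, had log2 differences of -0.14, 0.05 and -0.03. The antisense gene Brip1os had one of -0.01, and the annotated rRNA gene Gm23473 one of -0.55 (SE 0.42). For the 4 genes other than Gm23473 the difference was smaller than its standard error. These 4 lie far out. Brip1os, Ints2 and Med13 start 314.9, 371.2 and 471.2 kb from the Tbx4 start, and Bcas3 starts 479.4 kb from that of Tbx2. Gm23473 starts 53.7 kb from the Tbx2 start. Apart from Tbx2, the fitted genes thus say little about the close surroundings of Tbx4. The median over the 5 was -0.03, beside 0.02 over all fitted genes. The 10 neighbours below the filter, at or below 1.53 FPKM in every library, were not tested. In 4 of them both Zeb1-CKO libraries lay below both controls, and in 6 the genotypes overlapped. The share of such genes among all genes below the filter was not computed, so no local fall can be read from this count. Gm11444, an annotated coding gene that starts between Tbx2 and Tbx4, was at 0.0776 and 0.0819 FPKM in Zeb1-CKO libraries, against 0.315 and 0.272 FPKM in control libraries. The others were Bcas3os1, Bcas3os2 and the pseudogene Atp5l-ps2, and all 4 were named after their values were seen.

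Around Tbx3 (chr5:119670669-119684724) and Tbx5 (chr5:119832668-119885219), both on the plus strand with starts 162.0 kb apart, 2 of 17 neighbouring genes were fitted. These were Tbx3os1 and Rbm19, an RNA-binding ribosome biogenesis gene with a log2 difference of -0.18. Neither passed limma's threshold, with 1 at an unadjusted p under 0.05, and the counts were the same without an intensity trend.

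Tbx1 (chr16:18580979-18590671, minus strand) lies in a stretch that corresponds to the human DiGeorge region, with Cldn5, the main endothelial claudin gene, 186.2 kb from its start. Cldn5 was at 3133 and 3500 FPKM in Zeb1-CKO libraries, against 2692 and 3428 FPKM in control libraries (log2 difference 0.12, limma adjusted p = 0.771). Of 47 genes near Tbx1, 16 were fitted and 0 passed limma's threshold, with 1 at an unadjusted p under 0.05 and the same counts without an intensity trend. Their log2 differences ran from -0.43 for Sept5, a septin gene, to 0.43 for Cdc45, a replication helicase gene, with a median of 0.09. Between these lay, among others, Txnrd2 (-0.26), Zdhhc8 (-0.23), Hira (-0.02), Ranbp1 (0.06), Trmt2a (0.07), Ufd1 (0.07), 2510002D24Rik (0.12), Mrpl40 (0.20), Arvcf (0.28), Gnb1l (0.33), Tango2 (0.36) and Dgcr8 (0.37), each as the log2(FPKM + 1) difference.

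**Figure D3:**
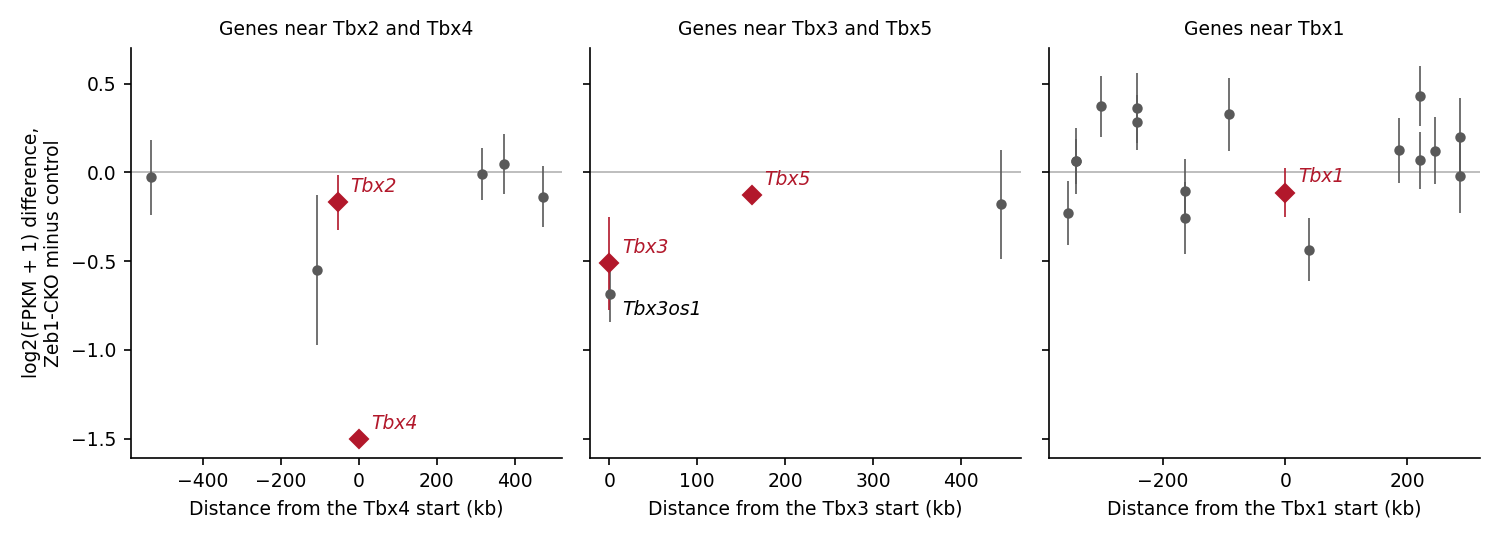
Difference in log2(FPKM + 1), Zeb1-CKO minus control (vertical axis), against the distance of each gene's start from that of Tbx4, Tbx3 or Tbx1 (horizontal axis, kb, positive towards higher chromosome positions), for the fitted genes within 500 kb (grey circles) and the 5 T-box genes (red diamonds); bars are limma's standard errors, not drawn for Tbx4 and Tbx5, which were not tested. Tbx4 lies at -1.50, while the fitted genes around it, with Tbx2, lie between -0.55 and 0.05.

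ZEB1 binds E-box motifs, and the RefSeq promoter windows of the 5 genes (GRCm38.p6, 250 bases before to 50 after a start) were searched for CACCTG and TACCTG on either strand. These motifs differ in the first letter, so no position matches both. Windows were at hand for Tbx4 and Tbx1, 1 and 2 of them. The Tbx4 window, at chr11:85896515-85896814, held neither motif. It belongs to an inner start 10.3 kb downstream of the Tbx4 start in the table, so the sequence before that outer start was not searched. For Tbx1, 1 of the 2 windows, at chr16:18590622-18590921, held one match. Of all 32851 windows, 29.5% held at least 1 match. The match at Tbx1 lies after the start, on the minus strand. It is printed below with flanking bases, a stretch at chr16:18590622-18590643. The motif is in capitals as CAGGTG, the reverse complement of CACCTG.
Tbx1: cggcggccggtgCAGGTGaggg
A match is a description of letters, and neither binding nor its absence was measured here.

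Among the 10972 protein-coding candidates with a mean of at least 1 FPKM, 5 genes had the profile over the 4 libraries most like that of Tbx4, by the root-mean-square distance between centred log2(FPKM + 1) values. The distances were 0.0458 for Cdk5rap1, which encodes a mitochondrial tRNA-modifying enzyme, 0.0566 for Fbp1, which encodes the gluconeogenic fructose bisphosphatase, 0.0597 for the zinc-finger gene Zfp358, 0.0697 for Ccdc60 and 0.0820 for Sema3c, which encodes a secreted semaphorin; the median over the candidates was 0.787. Ccdc60 and Sema3c were, like Tbx4, below 1 FPKM in both Zeb1-CKO libraries, and the other 3 genes were above it. Ccdc60 stood at 0.138 and 0.124 FPKM in Zeb1-CKO libraries, against 2.44 and 2.17 FPKM in control libraries. Sema3c stood at 0.270 and 0.456 FPKM in Zeb1-CKO libraries, against 2.90 and 2.93 FPKM in control libraries. The most abundant of them, Zfp358, stood at 5.09 and 5.12 FPKM in Zeb1-CKO libraries, against 17.6 and 16.0 FPKM in control libraries. With 4 libraries in 2 groups this likeness is mostly the difference between the genotypes itself, and it is a description.

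**Figure D4:**
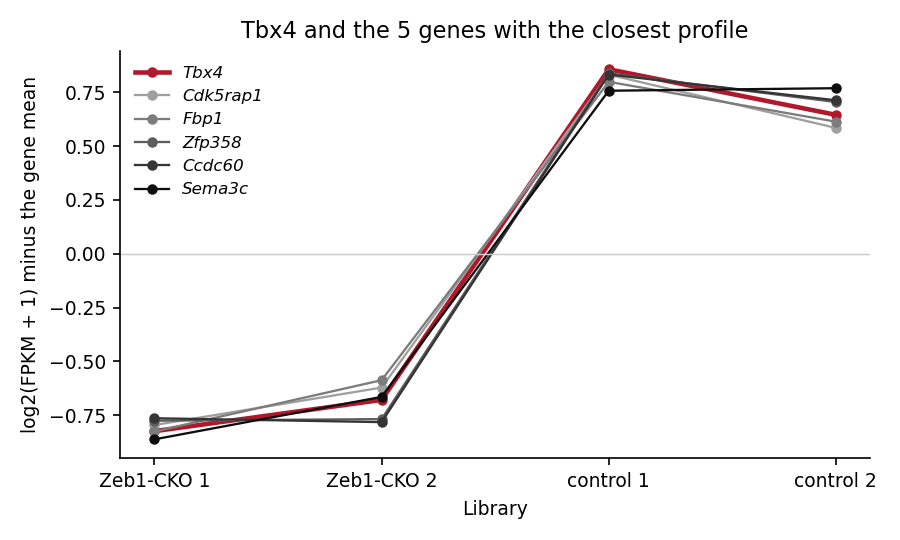
Value of log2(FPKM + 1) minus the gene's own mean (vertical axis) in the 4 libraries (horizontal axis) for Tbx4 (red) and the 5 genes with the closest profile (grey to black); lines join the libraries of 1 gene and carry no order. All 6 genes are below 0 in both Zeb1-CKO libraries and above 0 in both control libraries.

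Of 19 genes known in other tissues as regulated by Tbx1 to Tbx5, 9 were fitted, of which Cdh1 rose, Cdkn1a fell and 7 did not pass, with 5 of the 9 at an unadjusted p under 0.05. Without an intensity trend, limma called 1 of them, Cdh1, and gave Cdkn1a an adjusted p of 0.0771. Over all fitted genes 2.23% rose and 0.901% fell. Cdh1, which encodes E-cadherin and is repressed by TBX2 and TBX3 in human tumour cells, was at 22.4 and 22.3 FPKM in Zeb1-CKO libraries, against 0.156 and 0.0217 FPKM in control libraries (log2 difference 4.43, limma adjusted p = 0.000603). Cdh1 is also a known target of ZEB1. Cdkn1a, the cell-cycle inhibitor p21 and a known target of repression by Tbx2, was at 77.1 and 81.3 FPKM in Zeb1-CKO libraries, against 157 and 130 FPKM in control libraries. Its log2 difference of -0.84 had limma's adjusted p at 0.0494, just inside the threshold, and the call ended without any 1 library, at adjusted p of 0.0659 to 0.203. The connexin gene Gja5, known from the heart as activated by Tbx5 and repressed by Tbx2 and Tbx3, was at 2.41 and 1.79 FPKM in Zeb1-CKO libraries, against 0.581 and 0.113 FPKM in control libraries (limma adjusted p = 0.0809). Gja1, a connexin gene repressed by Tbx2 in the heart, was at 24.2 and 22.1 FPKM in Zeb1-CKO libraries, against 36.4 and 40.1 FPKM in control libraries (limma adjusted p = 0.0613). Fgf10, a growth factor gene known as a target of Tbx4 and Tbx5 in lung and limb, was at or below 0.109 FPKM in every library. Flt4 and Dll4, known targets of Tbx1 in endothelium, had log2 differences of 0.08 and 0.23 (limma adjusted p of 0.844 and 0.502). The median log2 difference of the 9 was 0.15, beside 0.02 over all fitted genes. Gja5, Gja1, Fgf10, Flt4 and Dll4 were named after their values were seen.

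Of 15 genes linked, like TBX4, to pulmonary arterial hypertension in humans, 11 were fitted, of which 1 rose and 10 did not pass, with 2 at an unadjusted p under 0.05. Cav1, which encodes the coat protein of caveolae, rose to 11.7 and 11.6 FPKM in Zeb1-CKO libraries, against 4.50 and 4.04 FPKM in control libraries (log2 difference 1.26, limma adjusted p = 0.0149). Its call ended without Zeb1-CKO replicate 1 or 2, at limma adjusted p of 0.116 and 0.121, and with no filter on the mean, at 0.0765. The receptor genes Bmpr2, Acvrl1 and Eng had log2 differences of -0.29, 0.02 and -0.18, with limma's adjusted p at 0.417, 0.963 and 0.514; they too were named after their values were seen. The median of the 11 was 0.02, the same as over all fitted genes to 2 decimals. Of 11 genes of the dorsal or ventral retina, 4 were fitted and 0 passed limma's threshold, with 1 at an unadjusted p under 0.05 and the same counts without an intensity trend. Their most abundant were Efnb2 and Efnb1, ephrin-B ligand genes, with log2 differences of -0.25 and -0.05 (limma adjusted p of 0.469 and 0.915). The gene at an unadjusted p under 0.05 was Vax2, which had higher values in Zeb1-CKO cells. It stood at 3.35 and 6.94 FPKM in Zeb1-CKO libraries, against 2.38 and 2.46 FPKM in control libraries. Its log2 difference was 0.78 (limma unadjusted p = 0.0412, adjusted p = 0.255), and it was named after its values were seen.

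Markers of other cell types were measured beside these values, and of all of them 1 passed limma's threshold, the smooth-muscle gene Tagln, which fell. All 8 pericyte markers and all 5 smooth-muscle markers had lower mean log2 values in Zeb1-CKO cells, while 47.2% of all fitted genes did. Of the 8 pericyte markers fitted 0 passed, and of the 4 smooth-muscle markers fitted 1 passed, beside 0.901% of all fitted genes in that direction. The summed pericyte markers were at 1624 and 1814 FPKM in Zeb1-CKO libraries, against 2332 and 1937 FPKM in control libraries, led by Rgs5, which makes up most of the sum, and Higd1b. The summed smooth-muscle markers were at 229 and 308 FPKM in Zeb1-CKO libraries, against 536 and 393 FPKM in control libraries, led by Myl9 and Acta2. No marker of either list was at 0 in any library, and the part of these cells in the values of Tbx18, Tbx2, Tbx3 and Tbx4 was not tested.

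The summed microglial markers were at 6.86 and 7.50 FPKM in Zeb1-CKO libraries, against 11.9 and 43.9 FPKM in control libraries, led by C1qb and C1qa. Of the 8 markers, 7 had lower mean log2 values in Zeb1-CKO cells, as did 47.2% of all fitted genes. P2ry12 went the other way, at 0.861 and 0.993 FPKM in Zeb1-CKO libraries, against 0.615 and 0.441 FPKM in control libraries. The 3 red-cell markers, led by Hba-a1 and Hbb-bs, summed to 664 and 1189 FPKM in Zeb1-CKO libraries, against 2296 and 2743 FPKM in control libraries. Both sums were lower in the 2 Zeb1-CKO libraries, although 0 of their markers passed limma's threshold. The fibroblast sum, led by Pdgfra and Col1a2, was higher in both, at 42.3 and 43.7 FPKM in Zeb1-CKO libraries, against 33.1 and 33.0 FPKM in control libraries. Most of it was Pdgfra, at 37.8 and 37.6 FPKM in Zeb1-CKO libraries, against 25.8 and 22.9 FPKM in control libraries. Col1a2 went the other way, at 2.75 and 3.29 FPKM in Zeb1-CKO libraries, against 6.00 and 7.74 FPKM in control libraries. The higher sum thus reflects Pdgfra and does not show a rise of fibroblast RNA as a whole. A set of 7 photoreceptor markers summed to 20.99 and 26.8 FPKM in Zeb1-CKO libraries, against 33.1 and 4.76 FPKM in control libraries. The glial sum, led by Gfap and Glul, was at 159 and 239 FPKM in Zeb1-CKO libraries, against 172 and 166 FPKM in control libraries. These 2 sums overlapped between genotypes, as did those of inner retinal neurons (Rbpms and Sncg leading) and pigment epithelium (Best1 and Lrat leading). The neuron sum was at 35.5 and 64.2 FPKM in Zeb1-CKO libraries, against 37.7 and 41.6 FPKM in control libraries, and the pigment epithelium sum was at or below 1.55 FPKM in every library.

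The 8 endothelial markers were present throughout, with summed levels of 4104 and 4488 FPKM in Zeb1-CKO libraries, against 3613 and 4378 FPKM in control libraries, and none at 0. Zeb1 was at 8.66 and 7.07 FPKM in Zeb1-CKO libraries, against 10.7 and 11.1 FPKM in control libraries, lower in both but short of limma's threshold (log2 difference -0.43, adjusted p = 0.235). A value per gene cannot show which part of the Zeb1 transcript was deleted.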

How the data were processed

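The authors deposited FPKM per gene for 4 libraries; with no unit in the header, FPKM was inferred from the values and the tools. Per the submitters' processing notes, these were Trimmomatic 0.36, HISAT2 2.1.0 and StringTie 1.3.3 on mm10; for settings and annotation release, nothing was found in the sources used here. cDNA was made with SMART-Seq v4, which does not mark strand. All 4 value columns were matched to samples by name. FPKM are scaled to the library total and are not counts, so no count test was run.

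Differences were tested with limma 3.58.1 (R 4.3.3) on log2(FPKM + 1), modelling genotype alone and letting the variance follow intensity, for the 13651 genes whose mean reached 1 FPKM, and adjusted by Benjamini-Hochberg over all of them (threshold 0.05). The method was tested on simulated data. Depth was estimated as the largest step in FPKM times transcript length that scored at least 0.75 of the best share of values within 0.02 of a whole step, among genes with 1 transcript over 600 bases; 20.4% to 27.9% of values lay so close. Amplified reads carry no molecular identifiers, so fragments are not independent molecules.

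The genes and lists were chosen with earlier results of these data known. The genes named were the T-box genes, fitted genes within 500 kb, called genes of the lists (or the 2 most abundant), the 5 closest profiles and the 2 leading markers of each cell type; others are marked where they appear. A few items that this rule names are not reported here. Positions are from GENCODE M21, whose versioned identifiers and starts match the table for the 5 genes. Python 3.11.15 with matplotlib 3.10.9 made the figures.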

Additional observations from a re-analysis of the deposited data

How the results depend on the processing

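The log2 differences of Tbx1, Tbx2 and Tbx3 were negative under all 14 alternatives, and none passed limma's threshold, with adjusted p of 0.598 to 0.967, 0.526 to 0.907 and 0.121 to 0.799. That of Tbx4 was -1.61 to -1.40 without any 1 library and depended on the pseudocount, at -2.16 with 0.5 and -3.74 with 0.1. That of Tbx5 (-0.13) was -0.25 with a pseudocount of 0.5, -0.96 with 0.1, and -0.13 to -0.12 without any 1 library; it was not computed under the scalings, other variance models and blocks. The count of called genes, 427, was 85 with no filter on the mean, 293 at a mean of at least 0.1 FPKM, and 66 to 281 without any 1 library (67 without Zeb1-CKO replicate 1, 66 without Zeb1-CKO replicate 2 and 281 without either control replicate). With the replicate number as a block it was 193; in this balanced design a block cannot change a log2 difference. Same-numbered libraries did not deviate together over genes (r = -0.12, 2 pairs). With 2 libraries of each genotype this is a single comparison, so it cannot exclude a batch that same-numbered libraries share. A block that crossed the numbers, added after seeing the data, called 455 genes. Of the list genes, the call of Cdh1 held under all 14 alternatives, that of Cdkn1a ended under 10 (adjusted p 0.0347 to 0.228 over all) and that of Cav1 under 3 (0.0133 to 0.121). Median-ratio and quantile scaling gave medians over all genes of 0.01 and -0.02 on the log2 scale, and 316 and 287 higher against 157 and 163 lower calls, beside 304 and 123. The depth limits Tbx4 in Zeb1-CKO cells and Tbx5 in all libraries.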
